A study of Mus musculus with 2 samples.

Results

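Mir203 and Mir205 are single-copy microRNA (miRNA) genes best known from skin and other stratified epithelia, and they were followed here in the kidney of the mouse embryo. The members were the rows of the count tables whose Ensembl identifiers carry these symbols in the GENCODE annotation of the mouse, and there were 2 of them among 1973 miRNA genes. The samples form 1 group, kidney of B6NCrl embryos at 14.5 days of gestation, with 2 biological replicates and no treatment or altered allele named. Each replicate held 2 kidneys, and the replicates were collected on different days. Per the labels a sample is from 1 pup, while another field gives material of both sexes, and both samples carry the same donor identifier. How many embryos a sample holds, and whether the replicates stand for separate animals, is therefore not settled. RNA of less than 30 nucleotides was sequenced. Whole kidney was used, so fewer cells of a type and less RNA per cell cannot be told apart, and the cells that made either miRNA were not separated. There is no contrast between conditions. Every SD given is over the 2 replicates and may be partly technical.

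A miRNA is cut from a hairpin in a longer transcript, first by Drosha and then by Dicer. One of the arms, written 5p or 3p, is loaded into an Argonaute protein and guides it to messenger RNAs, mainly through the seed near its 5′ end. miR-203 is known in the epidermis for holding back stemness as keratinocytes differentiate, with the transcription factor p63 as its best-known target. miR-205 is known, together with the miR-200 family, for repressing the transcription factors ZEB1 and ZEB2, which switch off epithelial genes. At this stage the epithelia of the kidney are the branching ureteric bud and the young nephrons, and both lie in a large mesenchyme.

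The hairpins are shown first, because the counts were made on them and because the place of the arms decides what a read on either strand can be. Sequences are from RefSeq on build GRCm38.p6, written 5′ to 3′ with the annotated mature arms in capitals. Mir203 (ENSMUSG00000065574.1) spans 76 bases at chr12:112130880-112130955 on the + strand. No other gene of GENCODE release M21 overlapped it. It lies 3321 bases after the end of Aspg and 15253 bases before the start of Kif26a. Mir205 (ENSMUSG00000065533.1) spans 68 bases at chr1:193507463-193507530 on the - strand, within an exon of the long non-coding RNA gene 4631405K08Rik, which RefSeq calls Mir205hg.
Mir203 hairpin: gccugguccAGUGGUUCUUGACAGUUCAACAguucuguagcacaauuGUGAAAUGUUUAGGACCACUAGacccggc
Mir205 hairpin: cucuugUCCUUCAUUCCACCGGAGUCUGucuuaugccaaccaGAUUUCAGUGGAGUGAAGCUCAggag

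The mature arms are shown with the seed (bases 2 to 8) in capitals, to show that the members do not belong to 1 seed family. The arm best known as the functional one is 3p for miR-203 and 5p for miR-205. The 4 seeds were all different, and none of them occurred in a mature miRNA of another gene in the RefSeq table. No other mouse hairpin of that table held a run of 16 bases of any of these arms on the same strand. The tables give 1 count per hairpin gene, so reads of the 5p and 3p arms are added together.
miR-203-5p: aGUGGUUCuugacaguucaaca
miR-203-3p: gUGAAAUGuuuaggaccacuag
miR-205-5p: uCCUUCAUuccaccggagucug
miR-205-3p: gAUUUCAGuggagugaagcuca

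The libraries were deep for genes at these levels. Counts on the strand of the gene summed to 5202588 in replicate 1 and 3683978 in replicate 2. Levels are given as CPM, counts per 1000000 of that sum. They are not divided by gene length, because a read in such a library usually covers a whole mature miRNA. Genes with 10 or more such counts in each replicate are called detected, and 345 of the 1973 genes were (17.5%). Their log2(CPM + 1) values in the replicates had a Pearson's r of 0.992, as a description across genes that are not independent. Of the 9 genes of the kidney list, 8 were detected, and the list summed to 245110 and 247842 CPM. Most of that came from Mir10a and Mir10b of the Hox clusters. The tubule genes were low, and 2 of them were uneven between replicates 1 and 2. Mir192 was at 125 and 224 CPM, Mir194-2 at 71.1 and 129 CPM, and Mir204 at 157 and 136 CPM. Mir194-1, with 3 and 4 counts, was not detected. Of the marker lists for other cells, endothelial Mir126a was high, at 45180 and 47759 CPM in replicates 1 and 2. The 6 counted genes of the stroma and smooth muscle list summed to 25029 and 25625 CPM. The 4 counted leukocyte genes summed to 640 and 591 CPM, near the level of Mir205 below. That sum leaves out Mir142, which has no row, and Mir142b added 0 to it, with 100% of its counts on the opposite strand in both replicates. The hepatocyte marker Mir122 was uneven, at 56.3 and 1074 CPM in replicates 1 and 2, the 3 erythroid genes summed to 161 and 77.6 CPM, and the 5 counted genes of the neural list to 1.35 and 1.90 CPM. None of those lists holds Mir203 or Mir205. Reads mapping to several places, 28.3% and 27.5% of all reads, are in no gene's count. The counts of a miRNA with several gene copies can therefore be too low. Such genes are in the neural list, in the kidney list (Mir194-1, Mir194-2, Mir196a-1 and Mir196a-2) and in the stroma list (Mir199a-1 and Mir199a-2). How far their counts and the sums are too low was not tested, so low values of such genes do not show absence.

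Mir203 was found at a middle-high level in both replicates. It had 8856 counts on its own strand in replicate 1, or 1702 CPM (95% exact Clopper-Pearson interval 1667 to 1738). In replicate 2 it had 5884 counts, or 1597 CPM (1557 to 1638). The replicate 1 value was the higher, and the intervals, which take in counting error alone, did not overlap. The mean was 1650 ± 74.3 CPM (SD, n = 2), 0.165% of counts. That placed Mir203 at rank 68 of 345 detected genes, at rank 65 in replicate 1 and 70 in replicate 2, and 80.3% of detected genes were lower. The order is of own-strand counts, which leave out reads mapping to several places and reads on the opposite strand. Its mean was 14.5 times the median of the detected genes, and Mir10a, the most abundant gene, was 87.3 times higher.

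Mir205 was lower than Mir203 and still within the upper part of the order. It had 3668 counts in replicate 1, or 705 CPM (95% exact interval 682 to 728), and 2324 counts in replicate 2, or 631 CPM (605 to 657). Here too replicate 1 was the higher and the intervals did not overlap. The mean was 668 ± 52.5 CPM (SD, n = 2), 0.0668% of counts. Mir205 stood at rank 98, at 95 in replicate 1 and 101 in replicate 2, with 71.6% of detected genes below it. Its mean was 5.86 times the median of the detected genes.

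**Figure D1:**
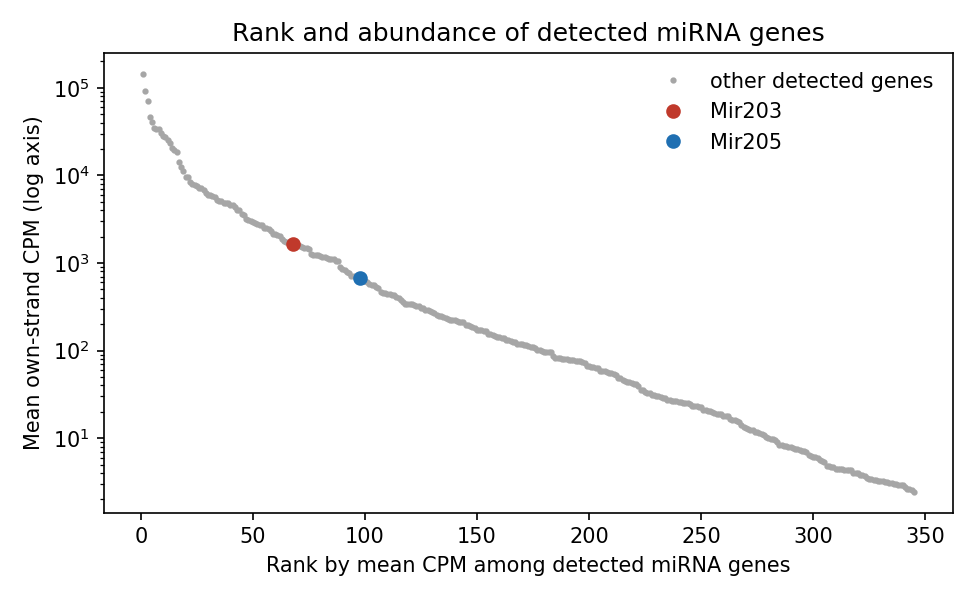
Mean own-strand CPM on a log axis against rank for the 345 detected miRNA genes; each grey point is a gene, with Mir203 in red and Mir205 in blue. Mir203 lies at rank 68 and 1650 CPM, and Mir205 at rank 98 and 668 CPM, both on the steady slope below the few dominant genes.

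Between the members, Mir203 exceeded Mir205 in both libraries by nearly the same factor. The ratio of their counts was 2.41 in replicate 1 (95% exact interval 2.32 to 2.51) and 2.53 in replicate 2 (2.41 to 2.66). On the log2(CPM + 1) scale the difference was 1.27 in replicate 1 and 1.34 in replicate 2, with a mean of 1.30 ± 0.05 (SD, n = 2). The difference was thus far larger than its spread between replicates, and the ranges of the members did not overlap. With 2 libraries an exact two-sided sign permutation cannot give a p below 0.5, so none is given. The ratio itself was not shown to differ between the libraries (two-sided Fisher's exact test on the 4 counts, p = 0.133). Ligation and amplification favour some small RNA sequences over others, so a ratio of reads of 2 miRNAs need not be their ratio in the cell. Both genes together took 0.241% of counts in replicate 1 and 0.223% in replicate 2.

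The order around each member was not resolved by these replicates. The neighbours were taken as the 3 genes directly above and the 3 directly below in mean CPM. Their distance is the absolute difference in mean log2(CPM + 1) over the 2 libraries, by which a gene outside the 6 can be nearer. Around Mir203 these were Mirlet7b, Mir127 and Mir484 above, and Mir101b, Mir487b and Mir181a-1 below. Mir101b was the closest of them, 0.02 away, at 1604 and 1653 CPM. The ranges of all 6 overlapped that of Mir203. Over all genes, 9 had a range that overlapped it, between rank 63 and rank 72. Around Mir205 the neighbours were Mir200a, Mir542 and Mir16-2 above, and Mir34c, Mir188 and Mir421 below. Mir16-2 was the closest, 0.03 away, at 723 and 645 CPM. Mir200a, a member of the miR-200 family, was at 738 and 675 CPM. All 6 ranges overlapped that of Mir205, as did those of 9 genes in all, between rank 93 and rank 103. Mir16-2 and Mir181a-1 are each 1 of several gene copies of a miRNA. Reads mapping to several places are left out, so their counts and their places beside the members can be too low. The libraries are of 1 tissue and give a level only, so likeness of level says nothing more about these genes.

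Set among 10 other miRNA genes known from epithelia, the members lay in the middle and in the lower part. All 10 were detected, against 17.5% of all genes in the tables. The 5 genes of the miR-200 family, which keep epithelial cells epithelial, and the 3 of the miR-183 cluster, known from sensory epithelia, made up most of this group, together with Mir31 of keratinocytes and Mir184 of the cornea. Genes of a shared cluster need not be independent, so the 10 do not stand for 10 separate observations. In the order of mean CPM, Mir203 held place 6 of 12. Mir183 was directly above it at 2613 and 2371 CPM, and Mir96 directly below at 1153 and 1140 CPM. Neither range overlapped that of Mir203. Mir205 held place 10 of 12, directly below Mir141 at 701 and 738 CPM and Mir200a, and the ranges of these 3 genes overlapped.

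All 5 miR-200 genes lay above Mir205 in this order, 3 of them above and 2 below Mir203. Mir429 led at 14037 ± 1789 CPM (SD, n = 2), a level of which Mir203 reached 0.118 times and Mir205 0.0476 times. Mir200c at 5062 ± 308 CPM and Mir200b at 4619 ± 226 CPM also lay above Mir203, as did Mir182 of the miR-183 cluster at 4792 ± 211 CPM. The other genes associated with stratified epithelium were lower than both members. Mir31 had 153 CPM in replicate 1 and 127 CPM in replicate 2, and Mir203 was 11.8 times and Mir205 4.76 times its mean. Mir184 was barely detected, with 12 and 11 counts. Mir203 and Mir205 together made up 6.32% of the counts of the 12 genes in replicate 1 and 6.55% in replicate 2.

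**Figure D2:**
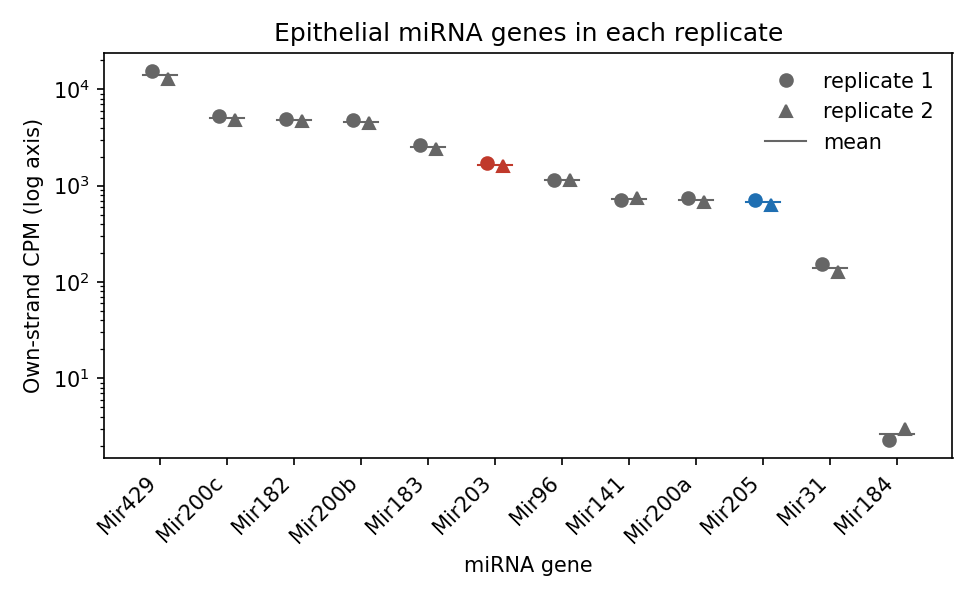
Own-strand CPM on a log axis of Mir203 (red), Mir205 (blue) and 10 other miRNA genes of epithelia (grey), in the order of their mean; circles are replicate 1, triangles replicate 2 and bars the mean of both. Mir203 stands clear of Mir183 and Mir96 on its sides, while Mir205 overlaps Mir141 and Mir200a.

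Both members were slightly lower in replicate 2, by less than is common among detected genes. The log2 ratio of replicate 2 over replicate 1, after TMM scaling, was -0.09 for Mir203 (95% exact interval -0.14 to -0.04) and -0.16 for Mir205 (-0.23 to -0.08). In size, these ratios were larger than those of 23.2% and 37.1% of the 345 detected genes. The median size of the log2 ratio was 0.24. Both passed an exact binomial test (two-sided, with Benjamini-Hochberg adjustment over all 345 genes), with an adjusted p of 0.000704 for Mir203 and 0.000115 for Mir205. That test compares these 2 libraries and allows for counting error only, and 27.2% of detected genes passed it as lower in replicate 2. Genes with more counts pass it at smaller ratios, so this share is not matched to the level of the members. Neither member reached a log2 ratio of 1 in size, so 0 of 2 were called, against 3.19% of detected genes. With an assumed coefficient of variation of 0.2 between libraries, edgeR's exact test gave an adjusted p of 1 for both.

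The other epithelial genes moved by similar amounts. Of the 10, 7 passed the same exact test as lower in replicate 2, beside 27.2% of all detected genes, and 0 as higher, beside 26.7%. Most of the 10 are of the miR-200 family or the miR-183 cluster, and genes of a shared cluster need not vary independently. The 7 are therefore not 7 separate observations, and how far the shares of all detected genes are a fair comparison was not tested. Their median log2 ratio was -0.11, beside 0.02 over all detected genes. Mir429 was at -0.26, Mir200a at -0.13 and Mir200c at -0.12. Mir141 at 0.08 and Mir96 at -0.01 did not pass, nor did Mir184 at 0.38. Endothelial Mir126a, at 0.08, passed as higher, and hepatocyte Mir122 was at 4.26. Whether the share of epithelium or of other tissue in the samples had a part in these ratios was not tested.

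**Figure D3:**
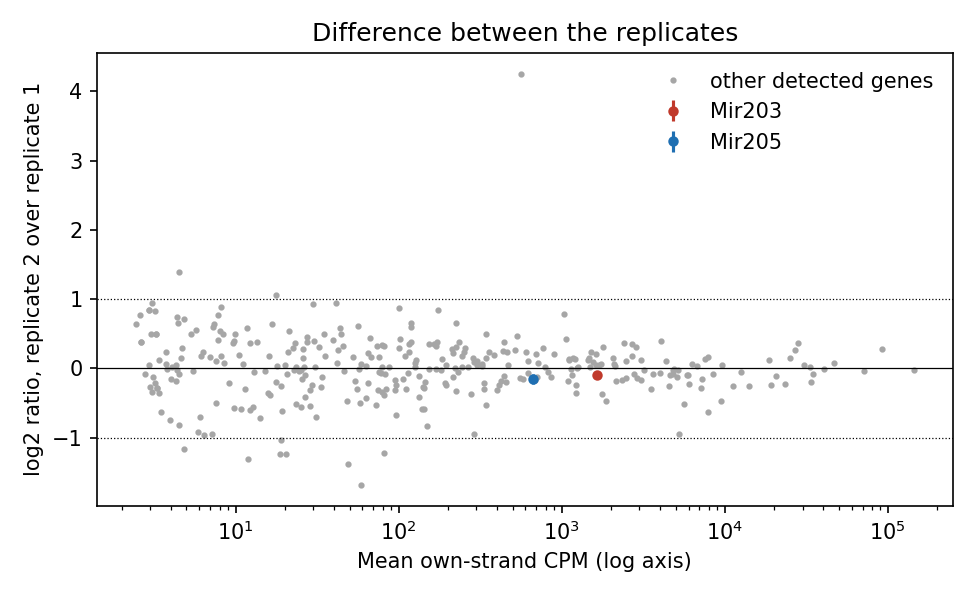
The log2 ratio of replicate 2 over replicate 1 against mean own-strand CPM (log axis) for the 345 detected genes; error bars on Mir203 (red) and Mir205 (blue) are 95% exact intervals from counting error, mostly hidden by the points, and dotted lines mark a ratio of 1 in size. Both members lie just below 0, at -0.09 and -0.16, inside the band of other genes of their level.

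The members had different shares of counts on the opposite strand. Mir203 had 25 counts on the opposite strand in replicate 1, which is 0.282% of its 8881 counts on both strands (95% exact interval 0.182 to 0.415). In replicate 2 it had 21, which is 0.356% of 5905 (0.220 to 0.543). The intervals overlapped, and the mean was 0.319% ± 0.0524 (SD, n = 2). Mir205 had 0 counts on the opposite strand in replicate 1, of 3668, which is 0% (95% exact interval 0 to 0.101). It had 1 of 2325 in replicate 2, which is 0.0430% (0.00109 to 0.239). The share of Mir203 was higher than that of Mir205 in each library by a two-sided Fisher's exact test, with p = 0.000242 in replicate 1 and p = 0.00883 in replicate 2 (0.000484 and 0.00883 adjusted over the 2 tests). The test treats reads as independent molecules and covers counting error within a library only.

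A count on the opposite strand was rare among detected genes. In replicate 1, 321 of the 345 (93.0%) had none, as Mir205 did, and in replicate 2 318 had none. The whole tables held 1.93% and 1.80% of counts on the opposite strand, but 99.5% of these in both replicates lay in genes that were not detected on their own strand. A large part lay in 1 gene, Gm25301, with 40.1% of all opposite counts in replicate 1 and 42.0% in replicate 2. Without Gm25301 the shares of the whole tables were 1.17% and 1.05%. The 345 detected genes together had 561 opposite counts in replicate 1 and 348 in replicate 2, and Mir203 held 4.46% and 6.03% of them. By number of opposite counts, Mir203 held place 3 in replicate 1, after Mir3074-1 and Mir126a, and place 2 in replicate 2, after Mir3074-1. Among the 95 detected genes with at least as many counts on both strands as Mir205 in replicate 1 (both members included), and the 101 in replicate 2, none had a higher opposite-strand share than Mir203. In each replicate 10 detected genes had a higher share, all with fewer counts than Mir205. Of the 6 neighbours of Mir203 in mean CPM, Mirlet7b had 1 and 3 opposite counts, and the other 5 had 0 in both libraries.

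RefSeq places another miRNA, mir-203b (gene Gm51289), on the opposite strand of Mir203, at chr12:112130887-112130946 on the - strand. It has no row of its own in the tables. Its arms are shown to compare them with those of miR-203 above, with the seed in capitals. Each overlaps an arm of miR-203 by 20 bases and is its exact complement there, and no seed is shared between the strands. A read of mir-203b would count as an opposite-strand read of Mir203. The tables do not give the position of a read within the hairpin, so the 25 and 21 reads could not be assigned to an arm.
miR-203b-5p: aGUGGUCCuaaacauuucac
miR-203b-3p: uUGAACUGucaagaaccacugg

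Such overlapping hairpins were uncommon among detected genes. RefSeq has a hairpin on the opposite strand of 11 of the 345, Mir203 included and Mir205 not. Of the 11, 7 had opposite counts in both replicates, and of the other 334, 12 did. Among the 11, Mir3074-1, which lies opposite Mir24-1, had 433 opposite counts beside 363 of its own in replicate 1. Mir126a, opposite Mir126b, had 32 opposite counts beside 235051, a share of 0.0136%, so the share of Mir203 was the larger although its counts were fewer. Only 4 detected genes had 10 or more opposite counts in both replicates. The fourth, Mir708, with 13 and 11, had no RefSeq hairpin opposite it. These counts describe the libraries, and what made the opposite-strand reads of Mir203 was not tested.

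**Figure D4:**
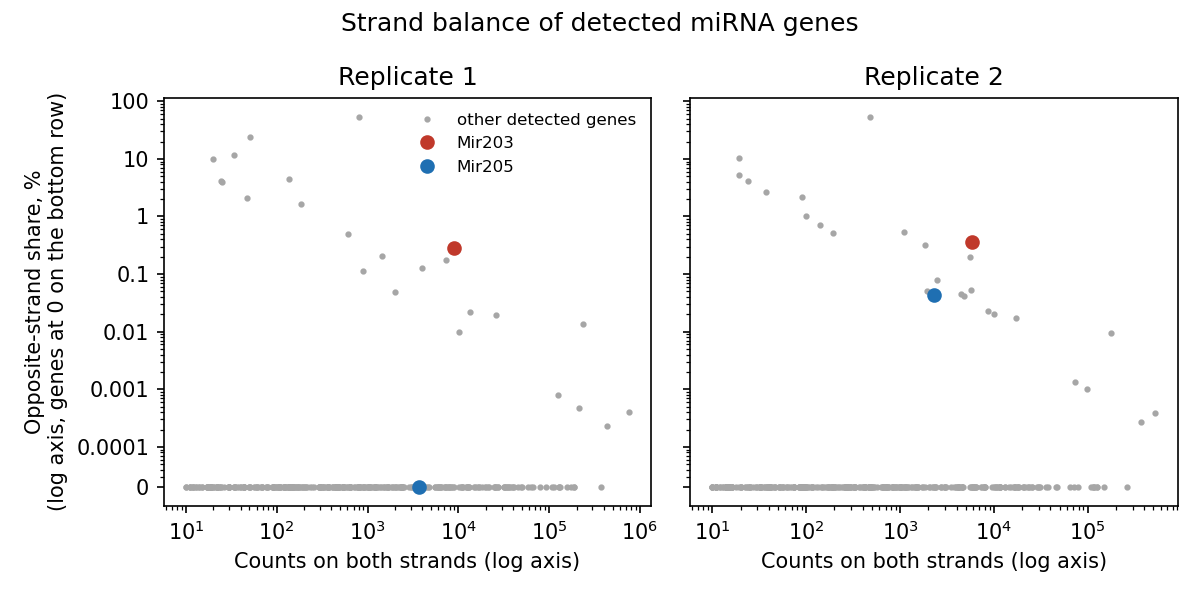
Share of counts on the opposite strand (log axis, genes with none on the bottom row) against counts on both strands (log axis) for the 345 detected genes in replicate 1 (left) and replicate 2 (right). Mir203 (red) lies above every detected gene of equal or higher count, at 0.282% and 0.356%, and Mir205 (blue) is at 0 in replicate 1 and at 0.0430%, 1 count, in replicate 2.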

How the data were processed

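Small RNA of embryonic kidney was sequenced in 2 replicates. The authors deposited raw read counts per miRNA gene, with no normalization; per the deposited file descriptions, reads were aligned to mm10 and counted on GENCODE M4. Which aligner and counter were used is not given in the sources used here. There are counts in each table for both strands, the gene's own strand and the opposite strand. The 4 rows at its head name no gene and were left out: unmapped reads (16.8% and 14.1% of all reads), reads mapping to several places (28.3% and 27.5%), reads on no feature (4.06% and 2.91%) and ambiguous reads (0). No gene's count includes reads mapping to several places.

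Symbols and positions came from GENCODE M21 on the same assembly, where 1894 of 1973 identifiers matched without version; the highest count among the 79 unmatched was 1. Sequences came from RefSeq (GRCm38.p6), where both members matched. The replicates were compared with exact binomial tests over all 345 detected genes, given totals scaled by TMM factors from edgeR. A call needed a log2 ratio of 1 or more in size besides an adjusted p below 0.05. The replicates were kept separate as labelled. A chi-square test over genes (46611 on 344 degrees of freedom), run only to look for 1 library given as 2, does not show separate animals. Log levels used a pseudocount of 1 CPM. No molecular identifiers are given, and reads may be PCR copies of each other, so intervals and exact and Fisher p-values cover counting error only.

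The members and gene lists were chosen with earlier results of these data known. Named genes were the members, the 3 neighbours on each side in mean CPM, the other epithelial list, genes sharing a seed, an overlapping miRNA gene and the most abundant gene. Marker genes and the genes with opposite-strand counts were named after their values were seen. Of the marker lists, the stroma and skeletal muscle lists summed to 25029 and 74.8 CPM in replicate 1 and to 25625 and 54.6 CPM in replicate 2. The software was Python 3.11.15 with pandas 2.3.3, scipy 1.17.1, matplotlib 3.10.9 and numpy 2.4.6, and R 4.3.3 with DESeq2 1.42.0 (size factors, as an alternative) and edgeR 4.0.16.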

Additional observations from a re-analysis of the deposited data

How the results depend on the processing

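Of 31 alternative values of the members' levels, ranks, difference and strand shares, 26 stayed within 1 SD of the replicates. These include values from 1 replicate alone. For levels, difference and shares such a value always lies within 1 SD of the mean of 2, so it says nothing about stability. The log2 ratios of the members between replicates stayed below 0 and uncalled in all 14 alternatives, and their adjusted p stayed below 0.05 in 12. In the other 2, edgeR's exact test with an assumed coefficient of variation of 0.2, it was 1. Per 1000000 of all reads in the table, tallies included, the mean level was 859 CPM for Mir203 and 347 CPM for Mir205. With the most abundant gene taken out of the total, it was 1927 and 780 CPM. Both changes follow from the size of the total and leave the ratio of the members as it was. With both strands counted, Mir203 moved from rank 68 to 71 and Mir205 from rank 98 to 103, as genes with opposite-strand counts entered the order. With that assumed variation, 2 genes were called between the replicates, against 11 with counting error alone. Without a minimum of counts 16 were called, with a minimum of 5 counts 14 and of 20 counts 9.

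Leaving out 1 replicate gave 1597 to 1702 CPM for Mir203, 631 to 705 CPM for Mir205, a log2 difference of 1.27 to 1.34 and an opposite-strand share of 0.282% to 0.356% for Mir203 and 0% to 0.0430% for Mir205. The share of Mir205 rests on 1 read in replicate 2. The epithelial list had 10 detected genes with either replicate alone and 9 at a minimum of 20 or 100 counts, without Mir184. No paired analysis was possible because there was 1 group. Few opposite-strand reads limit the strand shares, and the number of replicates limits every SD.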
